A study of Mus musculus with 8 samples.

Results

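The ufmylation genes are Ufm1, which encodes a small ubiquitin-like protein, and the genes that process it, attach it to other proteins and remove it. All 7 genes named at the outset (Ufm1, Ufc1, Ufl1, Ufsp1, Ufsp2, Ddrgk1 and Cdk5rap3) were found among the 19938 genes measured, each by its symbol in the platform annotation and by the probe set with the highest mean signal. Ufm1 was chosen by its log2 difference between MPTP and saline on these same arrays, so its values are given as a description with no test. The other 6 were chosen for their function in the same pathway, and the question was whether they follow Ufm1 over the 4 groups.

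Ufm1 is made as a precursor whose tail is trimmed by the cysteine proteases Ufsp1 and Ufsp2. It is then carried by the conjugating enzyme Ufc1 and joined to its targets by the ligase Ufl1, which works at the membrane of the endoplasmic reticulum with its anchor Ddrgk1 and the adaptor Cdk5rap3. In human cells the main target is the ribosomal protein RPL26 on ribosomes docked at the endoplasmic reticulum, and the same proteases take the modifier off again.

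The arrays hold RNA from whole retinas of male C57BL/6 mice, 6 weeks old at the start. The mice of 2 groups were given MPTP, which is turned in the body into a toxin of dopamine neurons that blocks mitochondrial complex I, and those of the other 2 were given saline. One group of each kind was collected after 1 week (day 7) and the other after 4 weeks (day 28). The dose is not given in the sources used here. Each group had 6 mice and 2 arrays, and each array received a pool of 4 retinas. Nothing in the labels ties a pool to particular mice, so p-values measure only the array-to-array spread, which may be technical, and in whole retina fewer cells of a type and less RNA per cell cannot be told apart.

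Signal is given in log2 units, and a difference of 1 in log2 units is a doubling. Differences are given as log2 difference ± standard error from limma, from 2 arrays against 2, or from 4 against 4 over both times. The adjusted p is over all 19938 genes and the threshold is 0.05. Probe sets differ in how brightly they bind, so the levels of single genes are not ranked against each other, and a percentile of the mean signal is given only as a rough guide to whether a probe set gave signal.

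Of 16 retina markers 14 were measured, among them Nrl, Sag and Glul, and all stood at or above percentile 69.7 of the mean signal. Their mean signal ranged from 9.88 to 10.08, and both MPTP arrays of 4 weeks (9.88 and 9.90) lay below both saline arrays of that time (9.94 and 9.96). For MPTP minus saline, 5 of the 14 were above 0 at 1 week, 2 at 4 weeks and 4 over both times. Markers of neighbouring tissues differed between arrays. Averaged over 12 lens markers, the signal ranged from 6.82 to 7.93, with the maximum on MPTP 1 week array 2. Averaged over 12 pigment epithelium markers it ranged from 7.13 to 7.69, again with the maximum on that array. Of the lens markers 6 of 12 lay above the median gene by mean signal, and of the pigment epithelium markers 5 of 12. For MPTP minus saline, 11 of the 12 lens markers were above 0 at 1 week and 7 at 4 weeks, and 7 and 5 of the pigment epithelium markers. Corneal (8 measured) and blood cell markers (4 measured) ranged from 6.42 to 6.70 and from 6.47 to 6.62, with 1 of each list above the median gene. At 4 weeks 8 of the 8 corneal markers were above 0, against 4 at 1 week, and 2 of the 4 blood cell markers at each time. The part of these tissues in the 4 week values of the ufmylation genes was not tested. The other large difference between arrays set saline 1 week array 2 and MPTP 1 week array 1 apart from the other 6 on the first principal component (38.3% of the variance), 1 array in each group of that time.

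Ufm1 itself was measured by probe set 10498158. Its signal was 7.37 and 7.53 on the saline arrays of 1 week and 8.03 and 8.08 on the MPTP arrays of that time. At 4 weeks it was 7.52 and 7.15 with saline and 7.82 and 7.65 with MPTP. All 4 MPTP arrays lay above all 4 saline arrays, and the MPTP arrays of 1 week were the highest. The log2 difference was 0.60 ± 0.13 at 1 week (1.52-fold), 0.40 ± 0.13 at 4 weeks (1.32-fold) and 0.50 ± 0.09 over both times (1.41-fold). These are the values for which the gene was chosen. Over both times 1.01% of all genes lay higher with MPTP without overlap, and nothing is read from this for Ufm1. The 4 week value depended on single arrays, and was 0.22 without saline array 2 and 0.58 without saline array 1.

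**Figure D1:**
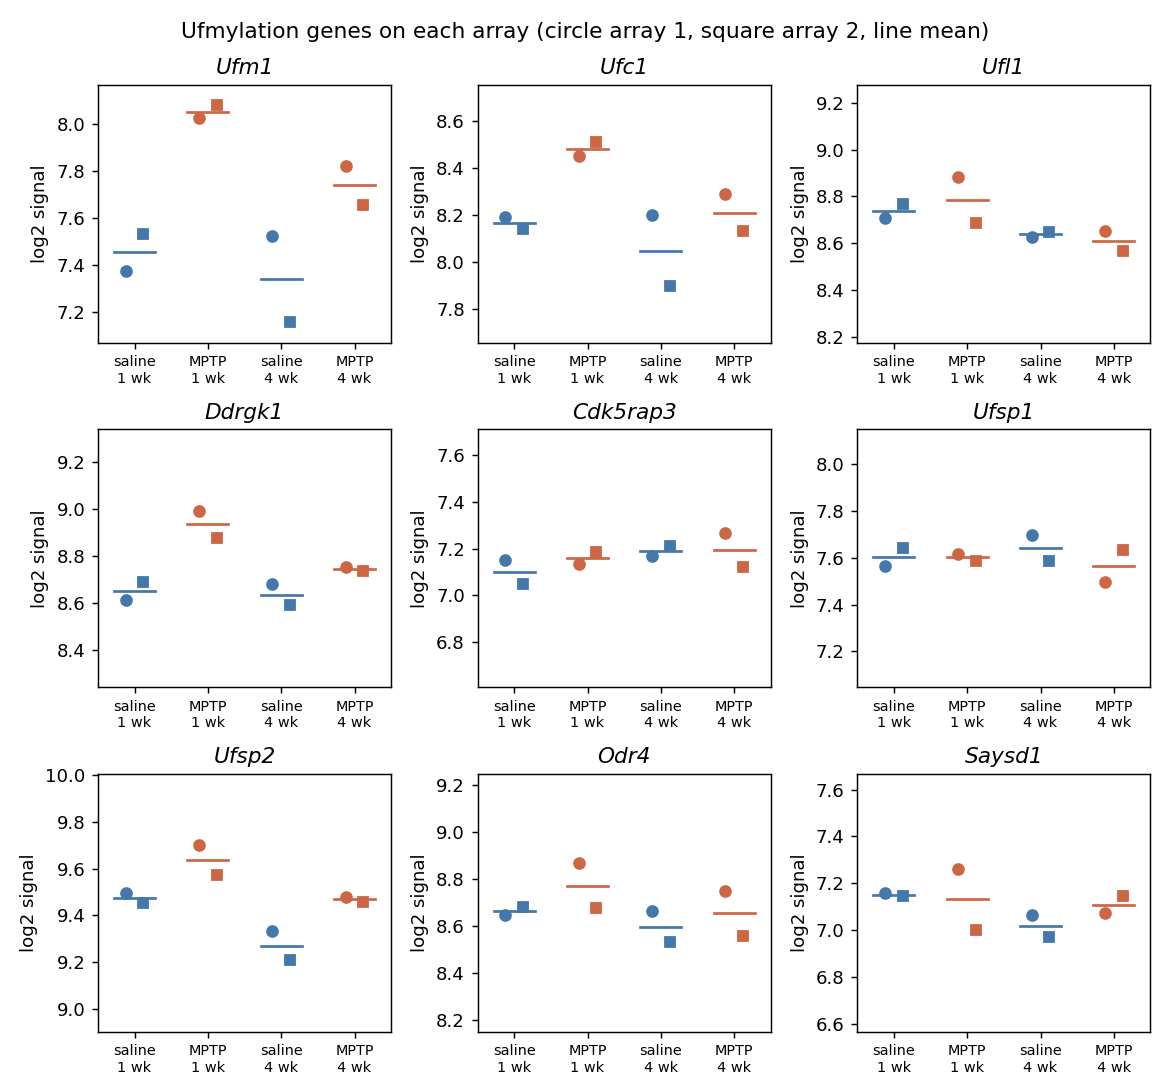
Log2 signal (vertical axis, with the same span of log2 units in each panel) of the 7 ufmylation members and of Odr4 and Saysd1 in the 4 groups. Circles are array 1, squares are array 2 and lines are group means of 2 arrays; blue is saline and orange is MPTP. The MPTP arrays of 1 week are the highest of all 8 for Ufm1, Ufc1, Ddrgk1 and Ufsp2, and the groups overlap for Ufl1 and Ufsp1 at both times.

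A second probe set of Ufm1, 10498160, did not show this. Its signal was 7.17 and 7.42 with saline and 7.18 and 7.03 with MPTP at 1 week, and 7.16 and 7.03 with saline and 6.96 and 7.11 with MPTP at 4 weeks. The treatment groups overlapped at both times. The log2 difference was -0.19 ± 0.11 at 1 week, -0.06 ± 0.11 at 4 weeks and -0.12 ± 0.08 over both times. Averaging both probe sets gave 0.21 at 1 week and 0.19 over both times. Both probe sets are annotated to the same RefSeq transcript of Ufm1 and both lay above the median probe set by mean signal, at percentiles 68.3 and 54.2. Which part of the transcript each one reads is not given in the sources used here, and the reason for the disagreement was not tested. The higher Ufm1 signal therefore rests on 1 of its 2 probe sets.

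**Figure D2:**
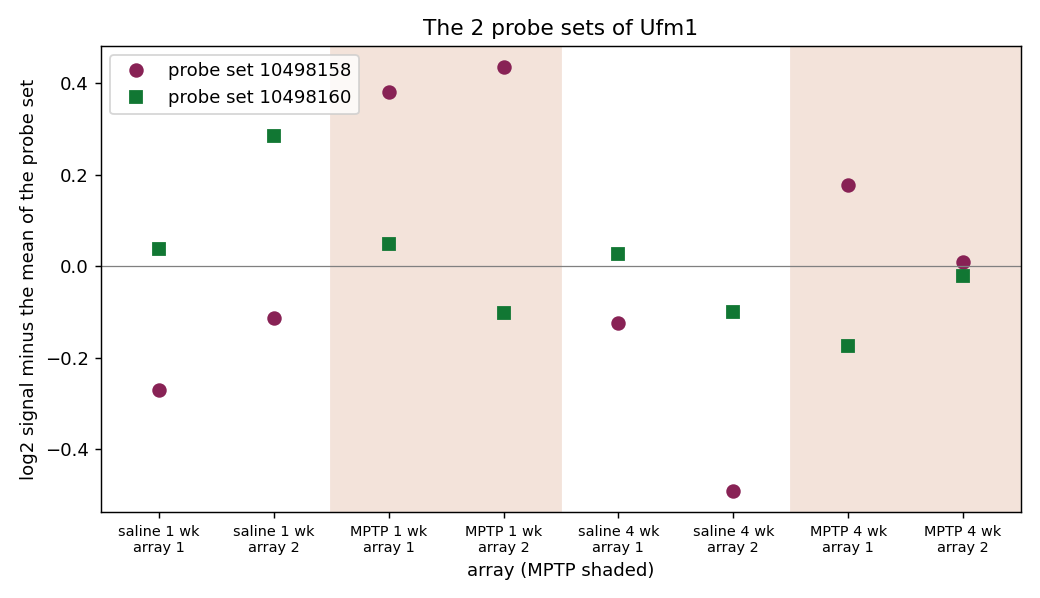
Log2 signal of the 2 Ufm1 probe sets on each of the 8 arrays, as the difference from the mean of that probe set (vertical axis); MPTP arrays are shaded. Probe set 10498158 lies higher on every MPTP array than on any saline array, and probe set 10498160 does not.

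The Ufm1 difference was also read without the arrays named above. MPTP 1 week array 2, with the highest lens and pigment epithelium signal, also had the highest Ufm1 signal, and without it the Ufm1 difference at 1 week was 0.57. Without it Ufc1 was at 0.29, Ddrgk1 at 0.34 and Ufsp2 at 0.22. The MPTP side of these values is MPTP 1 week array 1 alone, with the lowest lens (6.82) and pigment epithelium (7.13) signal. That array is also 1 of the 2 that stand apart. Between the 2 arrays that stand apart, MPTP exceeded saline by 0.49, and between the other 2 arrays of 1 week by 0.71. Without both arrays that stand apart, the Ufm1 difference over both times was 0.50.

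The conjugating enzyme Ufc1 came closest to Ufm1. Its signal was 8.19 and 8.14 with saline and 8.45 and 8.51 with MPTP at 1 week, without overlap. At 4 weeks it was 8.20 and 7.90 with saline and 8.29 and 8.13 with MPTP, where MPTP array 2 lay below saline array 1. The difference was 0.32 ± 0.11 at 1 week (1.24-fold, unadjusted p = 0.0197, adjusted p = 1.00), 0.16 ± 0.11 at 4 weeks (unadjusted p = 0.187, adjusted p = 1.00) and 0.24 ± 0.08 over both times (unadjusted p = 0.0118, adjusted p = 0.973). None of these passed the adjusted threshold, although Ufc1 stayed above 0 in every alternative run. The 1 week value kept to 0.29 to 0.35 when any array of that time was left out. The 4 week value rested on single arrays, with 0.0098 without saline array 2 and 0.31 without saline array 1, the same arrays that moved Ufm1.

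Of the ligase and its partners, the anchor Ddrgk1 had its treatment groups apart at both times, and Ufl1 and Cdk5rap3 had them overlapping. Ddrgk1, which recruits the ligase to the membrane, was 8.61 and 8.69 with saline and 8.99 and 8.88 with MPTP at 1 week, and 8.68 and 8.59 with saline and 8.75 and 8.74 with MPTP at 4 weeks. Every MPTP array of Ddrgk1 lay above every saline array, by a narrow gap at 4 weeks, which 1.01% of all genes did in this direction. The difference was 0.29 ± 0.09 at 1 week (1.22-fold, unadjusted p = 0.00990, adjusted p = 1.00), 0.11 ± 0.09 at 4 weeks (unadjusted p = 0.245) and 0.20 ± 0.06 over both times (unadjusted p = 0.0106, adjusted p = 0.973). It did not pass the adjusted threshold in any comparison, and the 4 week value was 0.07 without saline array 2 and 0.16 without saline array 1.

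The ligase Ufl1, which carries out the last step, was 8.71 and 8.77 with saline and 8.88 and 8.69 with MPTP at 1 week. At 4 weeks it was 8.63 and 8.65 with saline and 8.65 and 8.57 with MPTP. The groups overlapped at both times, and the difference over both times was 0.01 ± 0.06, with a 95% interval of -0.13 to 0.15. The adaptor Cdk5rap3 was 7.15 and 7.05 with saline and 7.14 and 7.18 with MPTP at 1 week, and 7.17 and 7.21 against 7.27 and 7.12 at 4 weeks. These overlapped too, and its difference over both times was 0.03 ± 0.06 (interval -0.10 to 0.17). The upper ends of both intervals lie below the 0.24 of Ufc1. The interval of Ufc1 itself, from a fit over all probe sets, was 0.06 to 0.41 and overlaps both. Differences between genes were not tested.

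The proteases were read one by one. Ufsp2, the larger one, which is held at the endoplasmic reticulum by Odr4, was 9.50 and 9.45 with saline and 9.70 and 9.57 with MPTP at 1 week. At 4 weeks it was 9.33 and 9.21 with saline and 9.48 and 9.46 with MPTP. Within each time the MPTP arrays lay above the saline arrays, while across times the MPTP arrays of 4 weeks overlapped the saline arrays of 1 week. The difference was 0.16 ± 0.09 at 1 week (unadjusted p = 0.111), 0.20 ± 0.09 at 4 weeks (unadjusted p = 0.0570) and 0.18 ± 0.06 over both times (unadjusted p = 0.0129, adjusted p = 0.973). It did not pass either, and was above 0 in every alternative run. The 1 week value was 0.10 without MPTP array 1, 0.22 without MPTP array 2 and 0.07 without both arrays that stand apart.

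Ufsp1, the smaller protease, was 7.56 and 7.64 with saline and 7.62 and 7.59 with MPTP at 1 week, and 7.70 and 7.58 against 7.50 and 7.63 at 4 weeks. The groups overlapped at both times, with a difference over both times of -0.04 ± 0.06 (interval -0.17 to 0.10). Odr4 was between 8.53 and 8.87 over the 8 arrays and differed by 0.08 ± 0.07 over both times (adjusted p = 0.975). Saysd1, which in human cells recognises ufmylated ribosomes at the translocon, ranged from 6.97 to 7.26 and differed by 0.03 ± 0.07 (adjusted p = 0.988). In both genes the MPTP and saline arrays overlapped over both times. At 4 weeks alone both MPTP arrays of Saysd1 lay above both saline arrays, as in 17.4% of all genes.

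**Figure D3:**
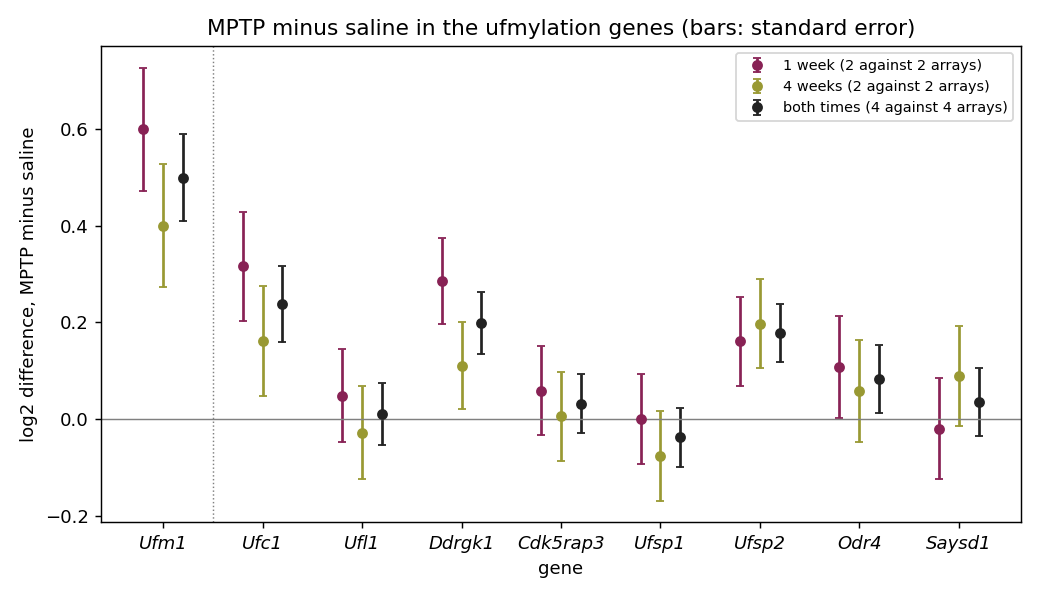
Log2 difference, MPTP minus saline (vertical axis), of the ufmylation genes at 1 week, at 4 weeks and over both times; bars are standard errors of the limma fit. Ufm1, left of the dotted line, was chosen for this difference. Ufc1, Ddrgk1 and Ufsp2 lie above 0 in all 3 comparisons, from 0.11 to 0.32, and Ufl1, Ufsp1 and Cdk5rap3 lie between -0.08 and 0.06.

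Counted together, 5 of the 6 members other than Ufm1 were above 0 at 1 week with a median of 0.11, against 46.9% of all genes and a median of -0.0081. At an unadjusted p under 0.05 in limma, 2 of the 6 were higher (Ufc1 and Ddrgk1), against 1.87% of all genes, and without overlap 3 of the 6 were higher, against 12.5%. At 4 weeks 4 of the 6 were above 0, against 51.8% of all genes. The median of the 6 was then 0.06, 0 of the 6 had an unadjusted p under 0.05 in limma, against 1.1% of all genes in the higher direction, and 2 were higher without overlap, against 17.4%. Over both times 5 of the 6 were above 0, against 49% of all genes, with a median of 0.11. There 3 of the 6 were higher at an unadjusted p under 0.05 (Ufc1, Ddrgk1 and Ufsp2), against 2.3% of all genes, and 1 was higher without overlap, against 1.01%. Without the 2 arrays that stand apart, 5 of the 6 were above 0 at 1 week (47.5% of all genes) and 1 was higher at an unadjusted p under 0.05 (2.96%), and over both times 4 (49.2%) and 3 (2.89%). Without MPTP 1 week array 2, 6 of the 6 were above 0 at 1 week (44% of all genes) and 1 was higher at that p (3.19%), and over both times 5 (47%) and 3 (1.92%). Without saline 4 weeks array 2, 5 of the 6 were above 0 over both times (49.7% of all genes) and 2 were higher at that p (1.45%). All 6 lay above percentile 50 of the mean signal. Of the genes at or above it, 53.8% were above 0 at 1 week, 42.4% at 4 weeks and 48.2% over both times. With limma on those genes alone, 3.67%, 0.672% and 3.52% were higher at an unadjusted p under 0.05, beside 2, 1 and 3 of the 6. The comparison over both times uses the arrays of the single times and is no repeat of them. After adjustment no gene of the whole table passed in limma, with 842 genes at an unadjusted p under 0.05 at 1 week, 381 at 4 weeks and 950 over both times.

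Promoters are shown for Ufm1 and for the 3 members with an unadjusted p under 0.05 over both times, to show the start regions of the genes whose values lay nearest to those of Ufm1. Each runs from 250 bases before the start to 50 after it, 5′ to 3′ on the strand of the gene, from RefSeq on build GRCm38.p6. Capitals mark 2 short motifs on either strand: CCAAT, the box bound by NF-Y, and ACGTG, the core of the sites bound by the unfolded protein response factors Atf6 and Xbp1 and by other factors. The windows are chr3:53863758-53864057 (Ufm1, minus strand), chr1:171294953-171295252 (Ufc1, minus), chr2:130664596-130664895 (Ddrgk1, minus) and chr8:45975278-45975577 (Ufsp2, plus).
Ufm1: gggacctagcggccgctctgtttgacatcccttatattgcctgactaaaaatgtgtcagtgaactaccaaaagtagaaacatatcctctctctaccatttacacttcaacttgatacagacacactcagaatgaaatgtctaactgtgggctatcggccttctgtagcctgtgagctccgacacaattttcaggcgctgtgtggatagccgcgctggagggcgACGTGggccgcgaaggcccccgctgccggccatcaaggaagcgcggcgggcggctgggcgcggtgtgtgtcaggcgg
Ufc1: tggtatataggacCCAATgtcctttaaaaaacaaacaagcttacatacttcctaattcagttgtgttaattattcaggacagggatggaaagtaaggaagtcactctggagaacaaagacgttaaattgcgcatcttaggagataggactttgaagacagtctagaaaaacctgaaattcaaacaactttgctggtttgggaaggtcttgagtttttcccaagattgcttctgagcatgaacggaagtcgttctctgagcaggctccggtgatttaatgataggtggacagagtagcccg
Ddrgk1: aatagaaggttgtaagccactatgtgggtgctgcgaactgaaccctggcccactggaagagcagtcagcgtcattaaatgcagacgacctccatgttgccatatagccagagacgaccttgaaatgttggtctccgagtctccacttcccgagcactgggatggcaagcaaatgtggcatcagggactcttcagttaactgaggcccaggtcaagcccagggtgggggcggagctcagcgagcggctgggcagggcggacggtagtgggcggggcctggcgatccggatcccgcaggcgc
Ufsp2: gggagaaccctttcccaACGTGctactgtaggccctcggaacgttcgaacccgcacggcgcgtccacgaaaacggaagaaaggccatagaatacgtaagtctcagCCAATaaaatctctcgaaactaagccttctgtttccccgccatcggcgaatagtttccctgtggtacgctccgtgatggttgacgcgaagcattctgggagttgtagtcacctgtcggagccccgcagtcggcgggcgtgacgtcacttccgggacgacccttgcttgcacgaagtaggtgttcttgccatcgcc

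Neither motif is in all 4 promoters. ACGTG occurs once in Ufm1, at position -27 where 0 is the start, and once in Ufsp2, at -233. CCAAT occurs once in Ufc1, at -237, and once in Ufsp2, at -145. The Ddrgk1 window holds neither. Among the other members, Ufl1 holds ACGTG at 27, Ufsp1 holds CCAAT in 2 places, and Cdk5rap3 holds both motifs. Of 32851 promoter windows of all genes, 37.4% hold CCAAT and 19.6% hold ACGTG. The longer unfolded protein response element TGACGTGG, which contains ACGTG, is in 0.676% of windows, and the longer ER stress response element, which joins a CCAAT box and a CCACG after a spacer, is in 0.119%. Neither of these longer motifs is in a window of the 7 members. A match, or its absence, is a description of these letters in this window.

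The 4 week arrays were also compared with the 1 week arrays within each treatment. In the MPTP arrays 5 of the 6 members other than Ufm1 lay below 0 (4 weeks minus 1 week), against 46.7% of all genes. All 6 lay above percentile 50 of the mean signal, and only 31% of the genes at or above it were above 0. A fall was thus common among genes of such signal. In 4 of the 6 both 4 week arrays lay below both 1 week arrays, against 21.5% of all genes. Ufc1 differed by -0.27 ± 0.11 (unadjusted p = 0.0374, adjusted p = 0.507), Ddrgk1 by -0.19 ± 0.09, Ufl1 by -0.18 ± 0.10 and Ufsp2 by -0.17 ± 0.09 (adjusted p = 0.511, 0.536 and 0.538), and Ufm1, given as a description, by -0.31 ± 0.13. Ufsp1 at -0.04 ± 0.09 and Cdk5rap3 at 0.04 ± 0.09 were nearest to 0. No member and no other gene passed, and 1952 genes of the table had an unadjusted p under 0.05.

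In the saline arrays 4 of the 6 members other than Ufm1 were below 0, against 49.4% of all genes. The other 2 were above 0, as were 38.6% of the genes at or above percentile 50. For 2 of the 6, Ufl1 and Ufsp2, both 4 week arrays lay below both 1 week arrays, against 15.1% of all genes. Ufsp2 differed by -0.20 ± 0.09 (unadjusted p = 0.0510, adjusted p = 1.00), Ufc1 by -0.12 ± 0.11, Ufl1 by -0.10 ± 0.10 and Ufm1 by -0.12 ± 0.13. Ddrgk1 at -0.01 ± 0.09 and Ufsp1 at 0.04 ± 0.09 were near 0. Cdk5rap3 stood at 0.09 ± 0.09, with both 4 week arrays above both 1 week arrays, as in 2525 of the 19938 genes. No gene of the table passed here, and 424 had an unadjusted p under 0.05. Time was not separate from the age of the mice, so these values hold both.

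The MPTP effect at 4 weeks minus that at 1 week was below 0 in 5 of the 6 members other than Ufm1, against 47.8% of all genes. The remaining 1 was above 0, as were 39.3% of the genes at or above percentile 50 of the mean signal. It was -0.15 ± 0.16 for Ufc1 (unadjusted p = 0.358), -0.17 ± 0.13 for Ddrgk1 (unadjusted p = 0.198), 0.04 ± 0.13 for Ufsp2 (unadjusted p = 0.781) and, as a description, -0.20 ± 0.18 for Ufm1. For Ufl1, Ufsp1 and Cdk5rap3 it was -0.08 ± 0.14, -0.08 ± 0.13 and -0.05 ± 0.13. No gene passed after adjustment, with 391 genes at an unadjusted p under 0.05, and so a smaller effect at 4 weeks is not shown for any member. These effects share arrays with the differences over time above.

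The pattern over all 8 arrays was compared by the root mean square difference between 2 genes after taking each gene's own mean from its log2 signal. Against Ufm1, a gene that did not vary would be at 0.30. Ufc1 was at 0.14, rank 8 of the 9969 genes at or above percentile 50 of the mean signal. Ddrgk1 at 0.19 (rank 87) and Ufsp2 at 0.20 (rank 146) followed, and Odr4 was at 0.24 (rank 756). Ufl1 at 0.28 (rank 2807) and Saysd1 at 0.28 (rank 3365) came later, while Cdk5rap3 at 0.30 (rank 4744) and Ufsp1 at 0.31 (rank 5621) were no nearer than a flat gene. Without the 2 arrays that stand apart, Ufc1 was at rank 17, Ddrgk1 at 173 and Ufsp2 at 288. The measure holds the treatment difference for which Ufm1 was chosen, so these ranks partly restate it.

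Ufc1 and Ufm1 were also compared within groups, where treatment and time are the same. Array 2 minus array 1 was -0.37 for Ufm1 and -0.30 for Ufc1 in the saline group of 4 weeks, and -0.17 and -0.16 in the MPTP group of 4 weeks. In the MPTP group of 1 week these were 0.05 and 0.06, and in the saline group of 1 week 0.16 and -0.05. The 2 genes thus differed the same way between pools in 3 of the 4 groups, as did Ddrgk1 and Odr4 against Ufm1. Ufl1, Ufsp1, Ufsp2, Cdk5rap3 and Saysd1 did so in fewer groups. The share of all genes that go the same way as Ufm1 was not counted, so nothing is read from this agreement. With 2 pools per group this is a description, and whether the pools differ in handling or in tissue was not tested.

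**Figure D4:**
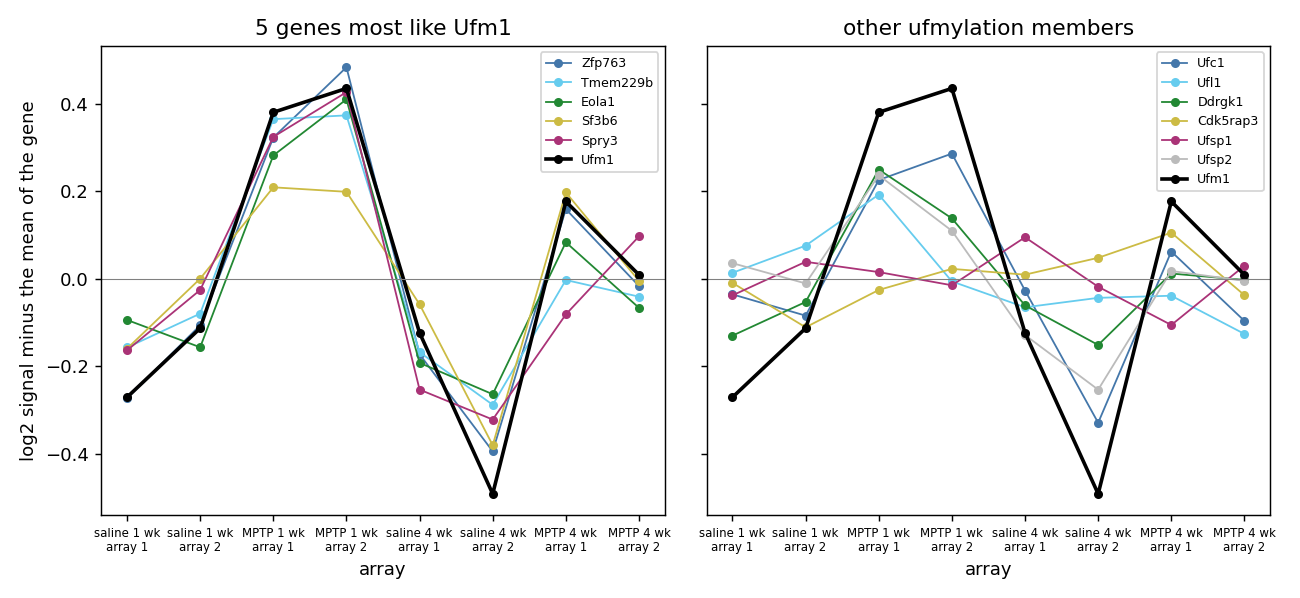
Log2 signal minus the mean of the gene over the 8 arrays (vertical axis) for each array, with Ufm1 in black. At left are the 5 genes most like Ufm1, and at right the other 6 members. Ufc1 has a smaller range than Ufm1 and goes the other way between the saline arrays of 1 week. Ufm1, Ufc1 and the 5 genes at left are all lowest on saline 4 weeks array 2. Ufsp1 and Cdk5rap3 stay near 0.

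The 5 named genes most like Ufm1 were Zfp763, a zinc finger gene, at 0.05, Tmem229b, a membrane protein gene, at 0.11, Eola1 at 0.12, Sf3b6, a subunit of the splicing factor SF3B, at 0.13, and Spry3, of the Sprouty family of signalling inhibitors, at 0.13. Zfp763 was 7.28 and 7.45 with saline and 7.88 and 8.04 with MPTP at 1 week, and 7.38 and 7.16 against 7.71 and 7.54 at 4 weeks. Like Ufm1 it did not overlap between treatments. Zfp763, Tmem229b and Eola1 were higher on all MPTP arrays, and Sf3b6 and Spry3 did not overlap within either time, only across times. They were picked for their likeness to a gene chosen for its MPTP effect, and their differences over both times, from 0.30 for Sf3b6 to 0.47 for Zfp763, are no separate support. Tmem229b and Eola1 each have a second probe set too, which gave 0.05 and 0.06 over both times against 0.35 and 0.35.

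Genes around the pathway were read from lists, over both times unless stated, and no member of these lists passed after adjustment. Of 9 reported targets of Ufm1, 4 were above 0 and 5 below, with a median of -0.01 against -0.0017 for all genes, and none had an unadjusted p under 0.05, against 2.3% of all genes higher and 2.47% lower at this p. Trip4, a transcriptional coactivator, stood at 0.13 ± 0.07, the ribosomal protein Rps3 at -0.06 ± 0.06, and Mre11a, a nuclease of DNA break repair, at -0.08 ± 0.09.

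Of 14 genes of the translocon and of ribosome docking, where ufmylated ribosomes sit, 8 were above 0 and 6 below, with a median of 0.0073. The channel subunit Sec61a2 stood at -0.15 ± 0.06 (unadjusted p = 0.0242, adjusted p = 0.973), the translocon-associated Ssr3 at -0.13 ± 0.06 and its partner Ssr2 at 0.14 ± 0.07. Sec61a2 was the only 1 of the 14 at an unadjusted p under 0.05. Of 13 genes of ribosome-associated quality control, which clears stalled ribosomes, 4 were above 0 and 9 below, with a median of -0.03 and none at an unadjusted p under 0.05. Vcp, an unfolding ATPase, stood at -0.13 ± 0.07, its cofactor Nploc4 at -0.09 ± 0.07 and the ribosome recycling factor Abce1 at -0.08 ± 0.06.

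The receptors that send endoplasmic reticulum to autophagy had 4 of 7 above 0 and a median of 0.03, with Sec62 at -0.10 ± 0.07, Calcoco1 at -0.05 ± 0.05 and Ccpg1 at -0.05 ± 0.06. The unfolded protein response, which raises chaperones of the endoplasmic reticulum, had 10 of 25 above 0 and 15 below, with a median of -0.0058. Neither list had a member at an unadjusted p under 0.05. Creld2, a gene induced by stress of the endoplasmic reticulum, stood at 0.14 ± 0.06, the stress factor Ddit3 at 0.13 ± 0.06, and Herpud1, of protein degradation at the endoplasmic reticulum, at -0.14 ± 0.07. At 1 week 10 of the 25 were again above 0 and 15 below, and 2 were higher at an unadjusted p under 0.05, against 1.87% of all genes. These were Creld2 at 0.25 ± 0.08 (adjusted p = 1.00) and the chaperone gene Dnajb9 at 0.25 ± 0.11 (adjusted p = 1.00), named after their values were seen.

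Other ubiquitin-like modifiers did not stand with Ufm1 as a list: 7 of 14 were above 0 and 7 below, with a median of 0.0036. Fau, a fusion of a modifier with a ribosomal protein, stood at 0.18 ± 0.06 (unadjusted p = 0.0114, adjusted p = 0.973) and was the only 1 of the 14 at an unadjusted p under 0.05. It has 2 probe sets, and its value ran from 0.11 to 0.21 over the alternatives run. Ubl5, which acts in splicing, stood at 0.13 ± 0.06 and Urm1, which acts in transfer RNA modification, at -0.14 ± 0.06. Of 11 activating and conjugating enzymes of the other modifiers, 8 were above 0 with a median of 0.04 and a highest value of 0.08, and none had an unadjusted p under 0.05. At 1 week 9 of these 11 were above 0 with a median of 0.07, beside 5 of the 6 members other than Ufm1 with a median of 0.11. Atg10, the conjugating enzyme of Atg12, stood at 0.08 ± 0.07, Nae1, of the enzyme that activates Nedd8, at 0.06 ± 0.06 and Uba6, an activating enzyme of ubiquitin, at 0.06 ± 0.06. Over both times the highest of these 11 lay below Ufc1 at 0.24, Ddrgk1 at 0.20 and Ufsp2 at 0.18, without a test of that difference. This did not hold at the single times. The highest of the 11 was 0.20 at 1 week, above Ufsp2 at 0.16, and 0.14 at 4 weeks, above Ddrgk1 at 0.11.

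**Figure D5:**
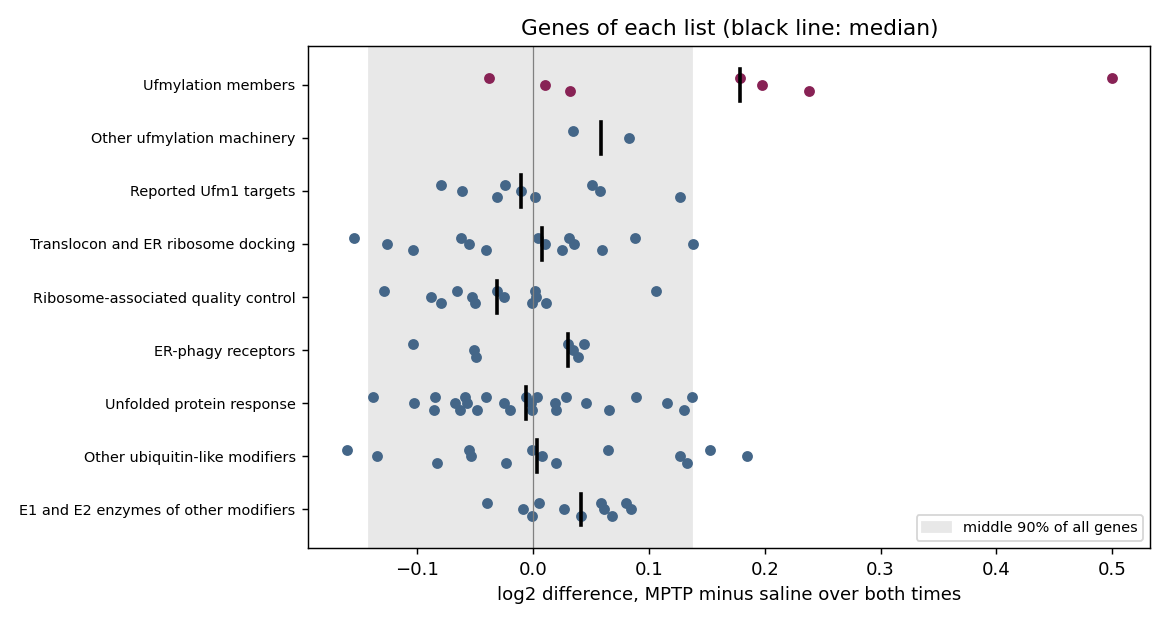
Log2 difference, MPTP minus saline over both times (horizontal axis), of each measured gene of the 9 lists; black lines are medians and the grey band holds the middle 90% of all genes. Of the ufmylation members 4 lie above the band (Ufm1, Ufc1, Ddrgk1 and Ufsp2), with Ufm1 at 0.50. Genes of other lists lie above it too, among them Fau at 0.18 and Ssr2 at 0.14. The medians of the other lists lie between -0.03 and 0.06.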

How the data were processed

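The deposited log2 signals come from RMA in Affymetrix Expression Console, run by the authors (the submitters' processing notes name both without versions). The table holds 28944 probe sets, of which 21789 name exactly 1 gene. Probe sets of several genes (1621) or without an entry (5534) were left out, symbols were updated through the RefSeq gene table, and the probe set with the highest mean was kept per gene, without a filter on dim signal.

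Each gene was fitted with limma 3.58.1 in R 4.3.3 (two-sided, Benjamini-Hochberg over all genes): a mean per group over all 8 arrays (4 residual degrees of freedom), and an additive model of treatment and time (5) for both times. The code was tested on simulated data. Precision is limited by the number of arrays. The members and lists were chosen with earlier results of these data known. Named genes are the 7 members, Odr4 and Saysd1, the 3 genes of each list with the smallest unadjusted p over both times, and the 5 protein-coding genes above percentile 50 most like Ufm1. Creld2 and Dnajb9 at 1 week were added after their values were seen. Figures used Python 3.11.15 and matplotlib 3.10.9.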

Additional observations from a re-analysis of the deposited data

How the results depend on the processing

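The alternatives were 3 other normalizations, a filter at percentile 50, the mean or the dimmest of a gene's probe sets, trend and robust eBayes, a fit restricted to the compared groups, a replicate block, single arrays left out, and no arrays that stand apart. The dimmest probe set and a block with exchanged numbers were chosen after seeing the data. Ufc1, Ddrgk1 and Ufsp2 stayed above 0 at 1 week, at 4 weeks and over both times in all alternatives run, over both times from 0.19 to 0.31, 0.16 to 0.23 and 0.15 to 0.21, and none of the 1236 gene values under alternatives passed the adjusted threshold. With the dimmest probe set Ufm1 was -0.19 at 1 week, -0.061 at 4 weeks, -0.12 over both times and 0.13 for the difference of effects, where 2 members were then above 0. The number of genes that passed stayed 0, except for 1 gene (Rny1, a small RNA gene, named after its value was seen) for the change with time in MPTP without the 2 arrays that stand apart, and 0 to 1 there with single arrays left out, where it was again Rny1, without MPTP 1 week array 1. Genes at an unadjusted p under 0.05 ranged from 477 to 1876 at 1 week, 195 to 942 at 4 weeks, 597 to 1604 over both times, 127 to 1445 for the difference of effects, 198 to 1688 for time in saline and 1110 to 3141 for time in MPTP.

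Values near 0 changed sign. With quantile normalization Cdk5rap3 was -0.0014 at 4 weeks, Ddrgk1 0.038 for time in saline, and Ufsp1 0.0058 for time in MPTP, where 2 members were above 0. With median centring Ufsp1 was 0.010 at 1 week, Cdk5rap3 -0.013 at 4 weeks and -0.0063 for time in MPTP, where 0 members were above 0. With cyclic loess Ddrgk1 was 0.033 for time in saline. Without the 2 arrays that stand apart Ufl1 was -0.020 at 1 week and -0.025 over both times, Ufsp1 0.023 at 1 week, and Ddrgk1 0.024 for time in saline. With single arrays left out, values at 1 week ran from -0.051 to 0.15 for Ufl1, -0.039 to 0.038 for Ufsp1 and -0.15 to 0.11 for Saysd1. At 4 weeks they ran from -0.072 to 0.016 for Ufl1, -0.066 to 0.077 for Cdk5rap3 and -0.038 to 0.15 for Odr4, and over both times from -0.037 to 0.042 for Ufl1 and -0.0059 to 0.10 for Saysd1. For the difference of effects they ran from -0.18 to 0.023 for Ufl1, -0.026 to 0.10 for Ufsp2 and -0.12 to 0.018 for Cdk5rap3, with 0 to 2 members above 0. For time in saline they ran from -0.30 to 0.068 for Ufm1, -0.27 to 0.033 for Ufc1, -0.019 to 0.094 for Ufsp1 and -0.060 to 0.031 for Ddrgk1, with 1 to 5 members above 0. For time in MPTP they ran from -0.11 to 0.030 for Ufsp1 and -0.036 to 0.11 for Cdk5rap3. The causes were not tested.

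Nothing in the labels pairs same-numbered arrays, and the correlation across genes of their deviations from the group means was -0.38 at 1 week and 0.12 at 4 weeks. The replicate block left 0 genes past the threshold in each comparison, with 713 genes at an unadjusted p under 0.05 at 1 week, 304 at 4 weeks and 880 over both times, and changed no call. A block with the saline 1 week numbers exchanged also left 0, with 1121, 526 and 1220.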
